A study of Caenorhabditis elegans with 4 samples.

Results

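The Hox genes of Caenorhabditis elegans were examined in poly(A) RNA of whole L3 larvae. The members are the 6 genes named as Hox genes, ceh-13, lin-39, mab-5, egl-5, php-3 and nob-1, taken from both deposited count tables by their WormBase gene identifiers, out of 46748 genes in all. All 6 were found, and all 6 were among the 15978 genes that passed the filter on low counts.

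Hox genes encode homeodomain transcription factors that give cells their identity according to their position along the head-to-tail axis. In the worm they pattern the embryo and act again in larvae, where they set the fates of epidermal precursor cells, the paths of migrating neuroblasts and the subtypes of ventral cord motor neurons. Silencing of Hox genes outside their domains is known to depend on Polycomb-type methylation of histone H3 lysine 27, a mark distinct from the H3K9 methylation removed in the mutant studied here. ceh-13 is the ortholog of Drosophila labial and acts in anterior patterning, lin-39 acts in the midbody and is needed for vulval precursor cells, and mab-5 acts in the posterior body region. egl-5, php-3 and nob-1 are the Abdominal-B-like genes of the tail.

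Animals of 2 genotypes were compared, the met-2 set-25 double mutant (strain GW638, alleles n4256 and n5021) and wild type (the Bristol strain N2), with 2 libraries each. Both were grown on NGM plates at 20 °C and harvested as L3 larvae, with no further treatment. MET-2 and SET-25 are the methyltransferases that deposit H3K9 methylation, so the comparison asks how transcript levels differ when that mark is lost. The mutant libraries are called rWQS029 and rWQS045 and the N2 libraries rWQS019 and rWQS042, after the table columns, and no source says if those of 1 genotype were grown as independent cultures. A p-value here thus rests on library-to-library spread that could be technical.

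Total counts were 36581352 and 48636767 in the mutant libraries and 22849521 and 56879896 in the N2 libraries. met-2 was at 31.8 and 35.3 CPM (counts scaled to a common library size with factors from the trimmed mean of M-values, TMM) in the mutant libraries, against 62 and 55.9 CPM in the N2 libraries (log2 fold change -0.81, edgeR adjusted p = 0.342). set-25, which overlaps unc-64 on the opposite strand, was at 11.5 and 11.6 CPM in the mutant libraries and at 11.4 and 17.6 CPM in the N2 libraries. Gene counts do not show where reads lie within a gene, so the deleted parts could not be examined. The mutant libraries differed from each other, and each differed from N2 in some gene lists. A list of 25 germline and meiosis genes summed to 1449 CPM in rWQS029 and 2739 CPM in rWQS045, against 748 and 737 CPM in the N2 libraries, and 5 cuticle genes of the L4 stage summed to 6.01 and 38.3 CPM in the mutant libraries, against 4.87 and 4.52 CPM in the N2 libraries. A list of epidermal genes summed to 2466 CPM in rWQS029 and 9082 CPM in rWQS045, against 4714 and 5726 CPM in the N2 libraries. Hox log2 fold changes are therefore also given with single libraries left out.

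All 6 genes lie on chromosome III, in pairs that are far apart (WBcel235 coordinates). lin-39 (WBGene00003024, positions 7528641 to 7536632) and ceh-13 (WBGene00000437, 7555660 to 7558041) are separated by 19.03 kb, so that the midbody gene lies outside the anterior one. A gap of 218.8 kb follows before mab-5 (WBGene00003102, 7776835 to 7783454), and a further 30.9 kb before egl-5 (WBGene00001174, 7814374 to 7817141). php-3 (WBGene00004024, 12074218 to 12077556) and nob-1 (WBGene00003779, 12077793 to 12084316) lie 4257 kb further on, with only 236 bp between them and on the same strand. No annotated gene overlaps an exon of a Hox gene. The 3 small noncoding RNA genes that lie in introns of lin-39 and egl-5 had counts of 0 to 5 in any library.

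The 6 genes were expressed at low to moderate levels. Per kb of merged exons, ceh-13 was highest, at 16.5 and 16 CPM per kb in the mutant libraries and 19.5 and 24.0 CPM per kb in the N2 libraries. Its level was above that of 59.7% of 14395 tested protein-coding genes in the mutant and of 68.2% in N2. In both genotypes the ranges of ceh-13 stayed clear of those of the gene next in order. php-3 and lin-39 followed. php-3 was at 13.9 and 8.37 CPM per kb in the mutant libraries and 17.9 and 15 CPM per kb in the N2 libraries, and lin-39 was at 14 and 10.7 CPM per kb in the mutant libraries and 17.2 and 15.6 CPM per kb in the N2 libraries. These ranges overlapped in each genotype, so their order was not settled. mab-5 came next with means of 8.52 ± 3.82 CPM per kb in the mutant and 10.8 ± 2.17 CPM per kb in N2 (SD, n = 2 libraries each). In the mutant its range overlapped that of php-3, whereas in N2 it lay below that of lin-39.

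egl-5 and nob-1 were the lowest, and again indistinguishable from each other by their ranges. egl-5 averaged 3.68 ± 1.19 CPM per kb in the mutant and 5.04 ± 0.75 CPM per kb in N2, and nob-1 averaged 3.25 ± 0.22 CPM per kb in the mutant and 6.14 ± 1.81 CPM per kb in N2 (SD, n = 2 libraries each). The median tested protein-coding gene was at 11.2 CPM per kb in the mutant and 10.6 CPM per kb in N2. nob-1 stood above 26.8% of tested protein-coding genes in the mutant and above 38.2% in N2, whereas egl-5 stood above 28.4% and 34.6%. In whole animals a gene of few tail cells and a weakly transcribed gene look alike, and fewer cells of a type cannot be told apart from less RNA per cell.

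Each Hox gene had a lower mean in the mutant than in N2, with log2 fold changes of -0.92 for nob-1 to -0.35 for mab-5, and none of these differences passed the test. edgeR's quasi-likelihood test called 0 of the 6 genes, as it did of all 15978 genes (0% higher and 0% lower), where the smallest adjusted p of any gene was 0.066. DESeq2, which the methods name, also called 0 of the 6, against 2.49% of 16562 genes as higher and 0.821% as lower, and limma voom called 0 of the 6 and 0 of all genes. At an unadjusted p under 0.05, edgeR had 1 Hox gene, nob-1, as lower and 0 as higher, where 3.87% of all tested genes were lower and 6.2% higher at that level. nob-1 was past that level in none of edgeR's fits with a library left out, whereas php-3 was past it without rWQS029. Those fits leave 1 library in a genotype, which is assumed to vary like the other genotype's 2 libraries. With all 4 libraries, DESeq2 also had nob-1 alone at that level, where 4.02% of all its tested genes were lower and 6.62% higher, and limma voom had 0 of the 6, where 3.64% were lower and 5.88% higher. Among all tested genes 48.4% had a log2 fold change below 0, and the median log2 fold change was 0.02, against -0.44 for the 6 Hox genes.

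**Figure D1:**
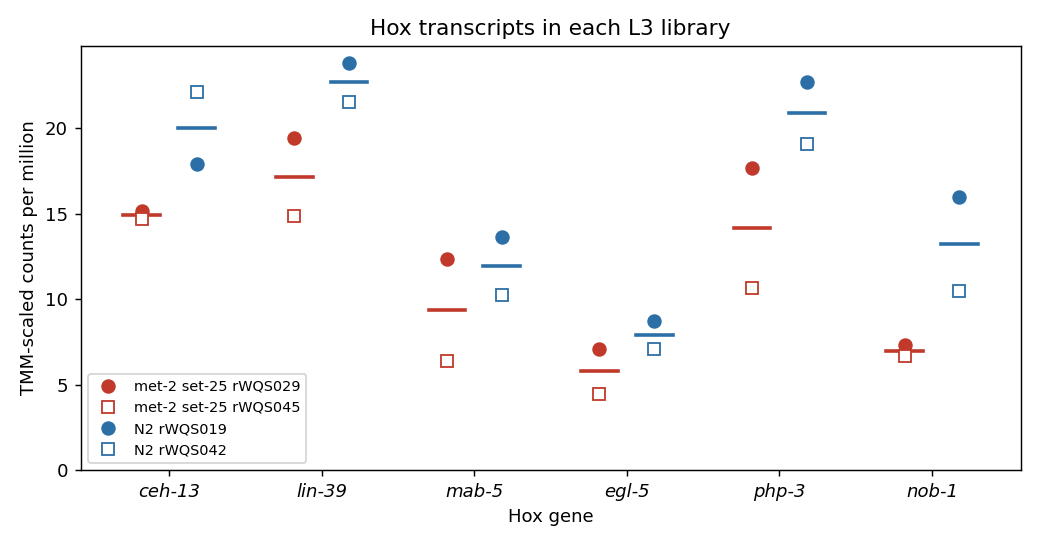
TMM-scaled CPM (vertical axis) of the 6 Hox genes (horizontal axis) in the met-2 set-25 libraries rWQS029 and rWQS045 (red, left) and the N2 libraries rWQS019 and rWQS042 (blue, right); bars are means of 2 libraries, and symbol shapes do not pair libraries. The mutant points lie below both N2 points for ceh-13, lin-39, php-3 and nob-1, and the ranges overlap for mab-5 and egl-5.

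nob-1, whose loss disrupts the posterior end of the embryo, differed most. It was at 7.33 and 6.66 CPM in the mutant libraries, from 289 and 297 counts, against 16 and 10.5 CPM in the N2 libraries, from 367 and 597 counts. The mutant libraries were close to each other and both below N2, whereas rWQS042 was well below rWQS019 (log2 ratio -0.61). The mutant mean was 52.9% of the N2 mean, with a log2 fold change of -0.92 in edgeR (adjusted p = 0.487) and of -0.90 ± 0.43 (SE) in DESeq2 (adjusted p = 0.383). The 95% interval from limma voom ran from -1.71 to 0.05. Without the N2 library rWQS019, which held the highest level, edgeR's log2 fold change was -0.59, and without rWQS042 it was -1.19. In edgeR 7.61% of all tested genes had a lower log2 fold change than nob-1.

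php-3, the neighbour and paralog of nob-1, which also acts in posterior patterning, was at 17.7 and 10.6 CPM in the mutant libraries and at 22.7 and 19.1 CPM in the N2 libraries. The groups did not overlap, but the gap between them, from 17.7 to 19.1 CPM, was smaller than the spread between the mutant libraries. Its log2 fold change was -0.56 in edgeR (adjusted p = 0.646), with a limma voom interval of -1.48 to 0.30. It was -0.24 without rWQS045 and -0.98 without rWQS029 (edgeR adjusted p = 0.169). How reads shared by near-identical sequences were counted is not given, so the split between php-3 and nob-1 is uncertain to the extent that such stretches exist. Per kb, php-3 was 4.08 and 2.70 times as high as nob-1 in the mutant libraries and 2.41 and 3.08 times as high in the N2 libraries, ranges that overlap.

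egl-5, which specifies tail neurons and male tail lineages, was at 7.10 and 4.46 CPM in the mutant libraries and at 8.74 and 7.08 CPM in the N2 libraries. rWQS029 and rWQS042 were practically level, so the groups overlapped. The log2 fold change was -0.45 in edgeR (adjusted p = 0.722), with a limma voom interval of -1.42 to 0.50. Leaving out rWQS045 brought it to -0.15 and leaving out rWQS029 to -0.83.

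mab-5, which directs the posterior migration of the left Q neuroblast's descendants, was at 12.4 and 6.41 CPM in the mutant libraries and at 13.7 and 10.3 CPM in the N2 libraries. rWQS029 lay between the N2 libraries, and rWQS045 was the lowest of all. Its log2 fold change of -0.35 in edgeR (adjusted p = 0.811; limma voom interval -1.48 to 0.71) rested on rWQS045. Without that library the sign turned, to 0.05, and without rWQS029 the value was -0.90. The mutant libraries were further apart for mab-5 than for any other Hox gene, with a log2 ratio of rWQS045 over rWQS029 of -0.95.

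lin-39, which keeps vulval precursor cells from fusing and acts in midbody neurons, was at 19.5 and 14.9 CPM in the mutant libraries, against 23.8 and 21.5 CPM in the N2 libraries. Both mutant libraries were below both N2 libraries, with a log2 fold change of -0.40 in edgeR (adjusted p = 0.663) and a limma voom interval of -1.10 to 0.28. It was -0.22 without rWQS045 and -0.61 without rWQS029.

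ceh-13, the anterior gene, was at 15.2 and 14.7 CPM in the mutant libraries and at 17.9 and 22.1 CPM in the N2 libraries. The mutant libraries nearly coincided, and here the N2 library rWQS042 was the highest, whereas for the other 5 genes rWQS019 was above rWQS042. The log2 fold change was -0.42 in edgeR (adjusted p = 0.646), with a limma voom interval of -1.11 to 0.22. It was -0.40 without rWQS045 and -0.45 without rWQS029, but -0.27 without rWQS042 and -0.57 without rWQS019.

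**Figure D2:**
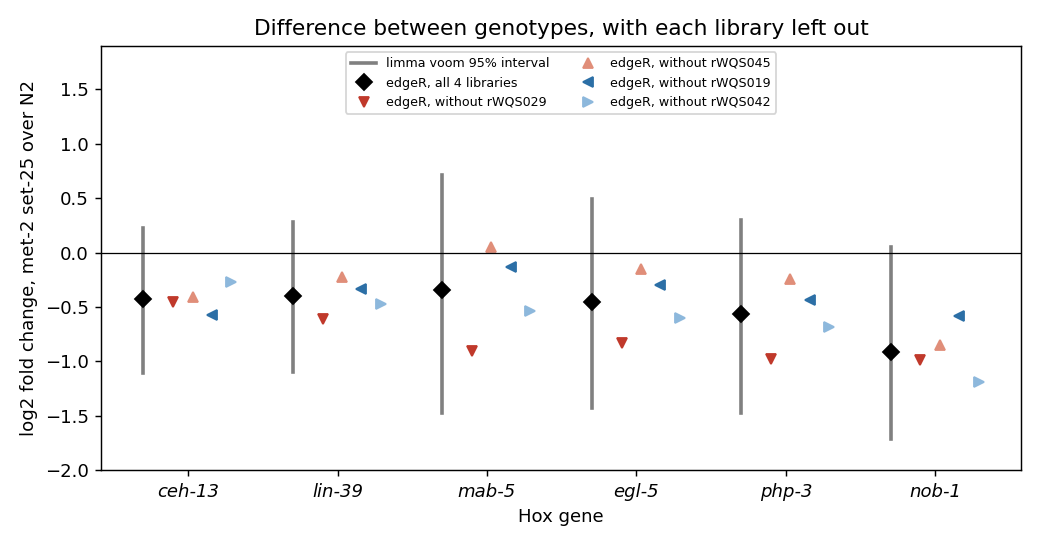
Log2 fold change of met-2 set-25 over N2 (vertical axis) for each Hox gene (horizontal axis): edgeR with all 4 libraries (diamonds), the 95% interval of limma voom (grey lines), and edgeR with each library left out (triangles). All 6 intervals include 0, and the only value above 0 is mab-5 without rWQS045, at 0.05.

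For 4 of the 6 genes, ceh-13, lin-39, php-3 and nob-1, both mutant libraries were below both N2 libraries, and for 0 genes were both above. Among all tested genes 21.1% were apart with the mutant lower and 22.1% with the mutant higher. rWQS045 was also the lower of the mutant libraries for all 6 genes, with log2 ratios over rWQS029 of -0.95 for mab-5 to -0.04 for ceh-13. The median log2 fold change of the 6 was -0.23 without rWQS045, -0.86 without rWQS029, -0.38 without rWQS019 and -0.57 without rWQS042. Together the 6 genes took 79.1 and 57.7 CPM in the mutant libraries and 103 and 90.5 CPM in the N2 libraries. Counts of the single genes ranged from 199 to 1262, so that counting error alone was 2.81% to 7.09% of a value. The mutant libraries of ceh-13 and nob-1 were no further apart than such error allows.

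The shares of the genes within the Hox total, which do not depend on scaling between libraries, mostly overlapped between the genotypes. ceh-13 made up 25.9% and 34.1% of the Hox level per kb in the mutant libraries and 24.3% and 32.8% in the N2 libraries. lin-39 stood at 22.1% and 22.9% in the mutant libraries and 21.5% and 21.2% in the N2 libraries, both mutant shares being slightly above both N2 shares. The Abdominal-B-like genes egl-5, php-3 and nob-1 together made up 34.4% and 30.6% in the mutant libraries and 38.6% and 33.3% in the N2 libraries. These ranges overlap. nob-1 was the only gene with both mutant shares, 5.36% and 6.61%, below both N2 shares, 9.29% and 6.64%. Its shares in rWQS045 (6.61%) and rWQS042 (6.64%) were practically level, so this does not set it apart. The shares were not tested.

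The genes around the Hox genes were counted in the same way. In the 288.5 kb from lin-39 to egl-5, 36 other genes were tested, and 24 had log2 fold changes above 0 and 12 below, with a median of 0.13, where 48.4% of all tested genes were below 0. Within 100 kb of php-3 and nob-1, 12 of 17 other tested genes were above 0 and 5 below, with a median of 0.21. edgeR called 0 of these genes. At its unadjusted p under 0.05 it had 6 as higher and 1 as lower in the first region, and 1 as higher and 1 as lower in the second. Over all tested genes 6.2% were higher and 3.87% lower at that level. DESeq2 called 4 in the first region, all higher, and 1 in the second, lower, where it called 2.49% of all genes as higher and 0.821% as lower. The difference between these genes and the Hox genes was not tested.

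**Figure D3:**
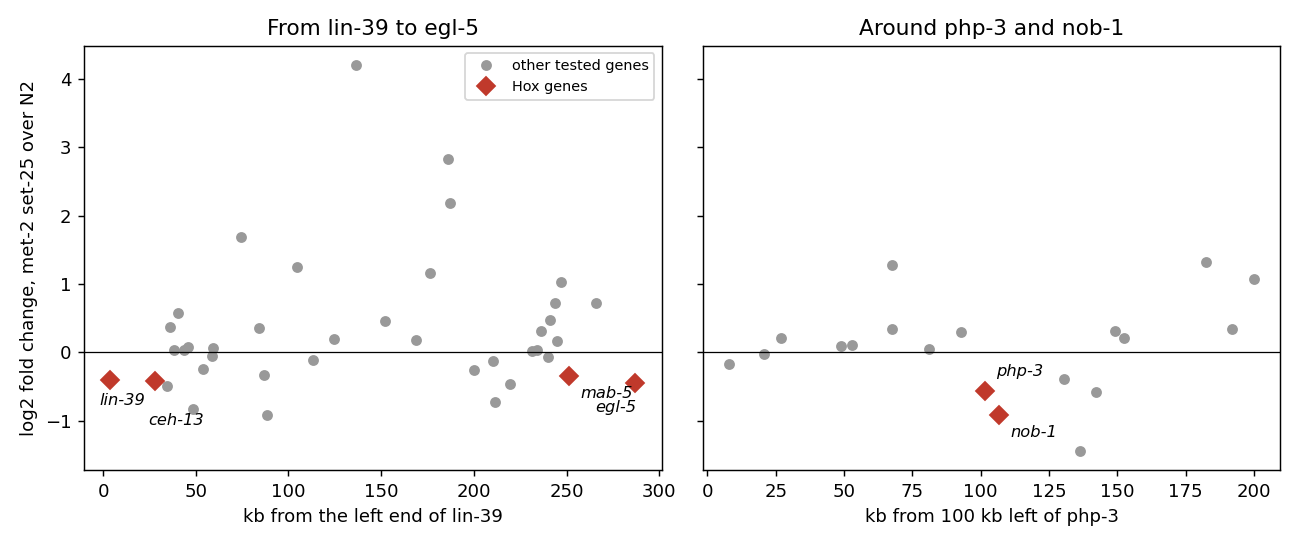
Log2 fold change of met-2 set-25 over N2 (vertical axis) against distance in kb (horizontal axis) for tested genes from lin-39 to egl-5 (left) and around php-3 and nob-1 (right), with Hox genes as red diamonds and other genes as grey circles. The Hox genes lie between -0.92 and -0.35, and the other genes have medians of 0.13 and 0.21.

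Of the nearest tested protein-coding neighbours, bath-15, a MATH and BTB domain gene 801 bp from mab-5 on the same strand, was at 4.77 and 7.40 CPM in the mutant libraries and at 3.26 and 2.72 CPM in the N2 libraries (log2 fold change 1.03, edgeR adjusted p = 0.489). Its mutant libraries were both above N2, whereas those of mab-5 overlapped N2. zyg-8, a doublecortin-type kinase gene of spindle positioning that lies 2147 bp from php-3 on the opposite strand, was at 40.5 and 48.6 CPM in the mutant libraries and at 36.5 and 36.3 CPM in the N2 libraries. lig-4, a DNA ligase gene 3770 bp from lin-39, had a log2 fold change of 0.26, and egl-45, a translation initiation factor gene 7235 bp from egl-5, one of 0.15. cyk-7, between mab-5 and egl-5, was at 16.8 and 35.9 CPM in the mutant libraries and at 17.7 and 14.4 CPM in the N2 libraries. lgc-12, a ligand-gated channel gene 4130 bp from ceh-13, was at 2.51 and 1.23 CPM in the mutant libraries and at 2.61 and 2.63 CPM in the N2 libraries (log2 fold change -0.49), but it overlaps ttr-8. cest-12, 17428 bp from nob-1, was at 64.3 and 8.0 CPM in the mutant libraries and at 51.4 and 42.9 CPM in the N2 libraries.

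DESeq2's calls in these regions are named here because of their values. lin-13, a zinc finger gene of the synMuv B class that restrains vulval fate, was at 249 and 244 CPM in the mutant libraries and at 107 and 114 CPM in the N2 libraries (log2 fold change 1.16, DESeq2 adjusted p = 0.0131), and it overlaps a pseudogene on the opposite strand. lido-18 was at 9.71 and 7.15 CPM in the mutant libraries and at 0.304 and 0.578 CPM in the N2 libraries (log2 fold change 4.2, DESeq2 adjusted p = 2.09e-11). C03B8.3 had a log2 fold change of 2.83 and the pseudogene WBGene00206459 one of 1.69. lonp-2, near nob-1, was the only one that fell, with 43.3 and 43.7 CPM in the mutant libraries and 149 and 87.6 CPM in the N2 libraries (log2 fold change -1.44, DESeq2 adjusted p = 0.0298).

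Hox proteins bind DNA with PBC and Meis class homeodomain partners. In the list of 5 such cofactors edgeR and DESeq2 called 0, and the median log2 fold change was 0.07. ceh-20, the main PBC partner of LIN-39 and MAB-5, which overlaps the noncoding gene F31E3.8, was at 55.0 and 39.4 CPM in the mutant libraries and at 63.9 and 57.0 CPM in the N2 libraries (log2 fold change -0.36, edgeR adjusted p = 0.69). Both mutant values were below both N2 values. unc-62, the Meis class gene, was at 80.9 and 66.8 CPM in the mutant libraries and at 47.9 and 73 CPM in the N2 libraries, which overlap. ceh-60 overlaps ets-4, and psa-3 had a log2 fold change of -0.35.

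Among 12 regulators of Hox expression edgeR and DESeq2 called 0, and the median log2 fold change was 0.06. This list mixes repressors and activators of Hox genes, so its median cannot show a shared direction. At edgeR's unadjusted p under 0.05, 1 was higher and 0 lower, against 6.2% and 3.87% of all tested genes. sop-2, whose product keeps Hox genes off outside their domains, was at 29.3 and 33.2 CPM in the mutant libraries and at 12.9 and 21.4 CPM in the N2 libraries (log2 fold change 0.86, edgeR adjusted p = 0.493). The Polycomb repressive complex genes mes-2, mes-3 and mes-6 had log2 fold changes of 0.31, 0.11 and 0.59. mes-6 overlaps C09G4.4. lin-59, of the trithorax group and needed for Hox expression, was at 125.5 and 108 CPM in the mutant libraries and at 158 and 146 CPM in the N2 libraries. egl-27, an MTA-type gene of the Wnt and Hox patterning pathway, was at 131 and 102 CPM in the mutant libraries and at 159.5 and 142 CPM in the N2 libraries. Both had mutant libraries below N2 without overlap, with log2 fold changes of -0.38 and -0.37 and edgeR adjusted p values of 0.632 and 0.657.

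Wnt signals switch on mab-5 and egl-5 in particular cells. Of 26 Wnt pathway genes edgeR and DESeq2 called 0, with 16 log2 fold changes below 0, 10 above and a median of -0.07. At an unadjusted p under 0.05 edgeR had 1 gene, as higher, a level at which 6.2% of all tested genes were higher. This was pop-1, the TCF transcription factor, at 17.2 and 24.9 CPM in the mutant libraries and 5.83 and 11.3 CPM in the N2 libraries (log2 fold change 1.29, edgeR adjusted p = 0.44). The Frizzled receptor gene mig-1 was at 29.4 and 23.5 CPM in the mutant libraries and 42.9 and 36.8 CPM in the N2 libraries (log2 fold change -0.59, edgeR adjusted p = 0.533). The Wnt gene egl-20 was at 20.2 and 19.4 CPM in the mutant libraries and 29.2 and 24.3 CPM in the N2 libraries. Its log2 fold change was -0.44 (edgeR adjusted p = 0.614). That of apr-1, which overlaps K04G2.9, was 0.37. bar-1, the beta-catenin that activates lin-39 and mab-5 and which overlaps pgp-10, had a log2 fold change of 0.02. A vulval induction list of 21 genes held the pathway that raises lin-39 in vulval precursors. It also held genes outside that pathway, such as lin-12 and lag-2 of Notch signalling. Of the 21 genes, 20 were tested, and edgeR and DESeq2 called 0. At edgeR's unadjusted p under 0.05 there were 0, and the median of the list was -0.06.

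Of 7 genes known as Hox targets, edgeR and DESeq2 called 0, with 0 at edgeR's unadjusted p under 0.05 and a median of 0.02. The list mixes genes that Hox proteins switch on with genes they hold down, so its median cannot show a shared response. mec-3, a touch neuron homeobox gene, was at 2.87 and 2.78 CPM in the mutant libraries and at 5.05 and 4.43 CPM in the N2 libraries (log2 fold change -0.75, edgeR adjusted p = 0.552). eff-1, the cell fusion gene that lin-39 holds down in vulval precursors, was at 41.7 and 36.0 CPM in the mutant libraries and at 21.8 and 32.3 CPM in the N2 libraries (log2 fold change 0.52, adjusted p = 0.613), but it overlaps C26D10.6. elt-6, a GATA factor gene, was at 9.64 and 7.71 CPM in the mutant libraries and at 11.8 and 10.9 CPM in the N2 libraries, whereas its neighbour egl-18 had a log2 fold change of 0.02.

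The list of 95 other homeobox genes of the worm includes the 5 cofactors, pal-1, mec-3, ceh-16, unc-4 and unc-30, which other lists here also hold. Of the 95 genes, 84 were tested, and 59 had log2 fold changes below 0 and 25 above. The median of the 84 was -0.31, where 48.4% of all tested genes were below 0. The mutant libraries were both below the N2 libraries for 39 of them, or 46.4%, and both above for 12, or 14.3%, against 21.1% and 22.1% of all tested genes. edgeR called 0 of them. At its unadjusted p under 0.05 it had 3 of the 84 as higher and 1 as lower. Over all tested genes 6.2% were higher and 3.87% lower at that level. DESeq2 called 1 as higher, where it called 2.49% of all its tested genes as higher. This was ceh-91, at 24.1 and 29.4 CPM in the mutant libraries and 8.79 and 8.22 CPM in the N2 libraries (log2 fold change 1.65, DESeq2 adjusted p = 0.000469). ceh-83 and ceh-74 were also higher at edgeR's unadjusted p under 0.05, with log2 fold changes of 1.82 and 0.99. The 1 gene lower at that level was ceh-17, of a few head neurons, with 20 counts in each mutant library. ceh-17 was at 0.507 and 0.448 CPM in the mutant libraries and at 1.57 and 1.35 CPM in the N2 libraries (edgeR adjusted p = 0.333).

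The homeobox gene most like each Hox gene was taken as the one with the smallest root mean square difference in centred log2 CPM over the 4 libraries. For lin-39 it was its partner gene ceh-20, at a distance of 0.039 on the log2 scale, where the median over the 84 genes was 0.261. The smallest of 84 distances lies below their median by selection, for every Hox gene alike. ceh-6, a POU homeobox gene, was nearest to mab-5, egl-5 and php-3, at 0.12, 0.048 and 0.08. ceh-30 was nearest to ceh-13 and ceh-1 to nob-1, at 0.096 and 0.09, but both were at low levels where counting error is large. ceh-30 was at 0.81 and 0.87 CPM in the mutant libraries and 1.0 and 1.10 CPM in the N2 libraries. ceh-1 was at 0.33 and 0.29 CPM in the mutant libraries and 0.65 and 0.46 CPM in the N2 libraries. The 4 libraries share their scaling and genotype, so these distances are descriptions only.

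Markers of the tissues in which Hox genes act were set beside them. All 11 genes of a ventral cord motor neuron list, which includes genes of acetylcholine and GABA transmission in neurons generally, were below 0. Their median log2 fold change was -0.69, and 8 of the 11 were apart with the mutant lower, as were 21.1% of all tested genes. unc-4, del-1 and acr-2 differed least, at -0.15, -0.18 and -0.35, and unc-17 and cha-1 overlap on the same strand. edgeR and DESeq2 called 0 of them, and 3 were lower at an unadjusted p under 0.05 in edgeR, a level reached by 3.87% of all tested genes. unc-3, the selector of cholinergic motor neurons, was at 5.07 and 3.63 CPM in the mutant libraries and at 8.44 and 7.67 CPM in the N2 libraries (log2 fold change -0.89, edgeR adjusted p = 0.495). unc-25, of GABA synthesis, was at 70.7 and 53.5 CPM in the mutant libraries and at 110 and 93.1 CPM in the N2 libraries (log2 fold change -0.71, edgeR adjusted p = 0.474). The 11 genes summed to 162 and 124 CPM in the mutant libraries and to 242 and 212 CPM in the N2 libraries, and none was at 0. All 12 general neuronal genes were also below 0, with a median of -0.36 and 0 calls by either tool or at an unadjusted p under 0.05 in edgeR, and summed to 940 and 788 CPM in the mutant libraries and to 1245 and 1070 CPM in the N2 libraries. The part of neuronal RNA in the Hox values was not tested.

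Muscle, epidermal and intestinal markers had medians of 0.05, 0.12 and -0.02, and 7 seam cell markers one of -0.28, with 0 calls by edgeR or DESeq2 in each list and 0 at edgeR's unadjusted p under 0.05. The epidermal list summed to 2466 and 9082 CPM in the mutant libraries, against 4714 and 5726 CPM in the N2 libraries, so that rWQS029 and rWQS045 bracketed N2. The 25 germline genes had a median of 1.56, with 23 above 0. As higher, DESeq2 called 12 of them and edgeR 0, with 14 higher at edgeR's unadjusted p under 0.05. Over all tested genes DESeq2 called 2.49% as higher, and 6.2% were higher at that edgeR level. The median of the germline list was 0.86 without rWQS045 and 2.0 without rWQS029, and the median log2 ratio of rWQS045 over rWQS029 was 0.92, whereas the Hox median of that log2 ratio was -0.53. The part of germline RNA in the Hox values was not tested.

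Among the 10 heterochronic genes, which time larval fates, DESeq2 called 1, lin-29, a zinc finger gene of the larval-to-adult switch, at 57.8 and 86.2 CPM in the mutant libraries and 23.5 and 29.6 CPM in the N2 libraries (log2 fold change 1.44, DESeq2 adjusted p = 0.0198). It overlaps hmg-12. edgeR called 0, with 1 higher and 0 lower at an unadjusted p under 0.05, and the median was -0.10. Over all tested genes edgeR had 6.2% higher and 3.87% lower at that level, and DESeq2 called 2.49% as higher. lin-42, a period-like gene, was at 190.5 and 518 CPM in the mutant libraries and at 106 and 279 CPM in the N2 libraries, so that both genotypes held a low and a high library. The L4 cuticle gene bli-2 was at 3.58 and 18.3 CPM in the mutant libraries and at 1.30 and 1.03 CPM in the N2 libraries (DESeq2 adjusted p = 0.00276). Of 7 adult genes, col-19 and the vitellogenins, 2 passed the filter, and the list summed to 8.29 and 4.98 CPM in the mutant libraries and to 2.22 and 2.26 CPM in the N2 libraries. edgeR called 0, with 1 higher at an unadjusted p under 0.05, and DESeq2 called 1, vit-1, at 7.25 and 4.04 CPM in the mutant libraries and 1.70 and 1.66 CPM in the N2 libraries (log2 fold change 1.75, DESeq2 adjusted p = 0.0288). Vitellogenin genes have near-identical copies, so their counts are uncertain. The part of developmental timing in the Hox values was not tested.

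**Figure D4:**
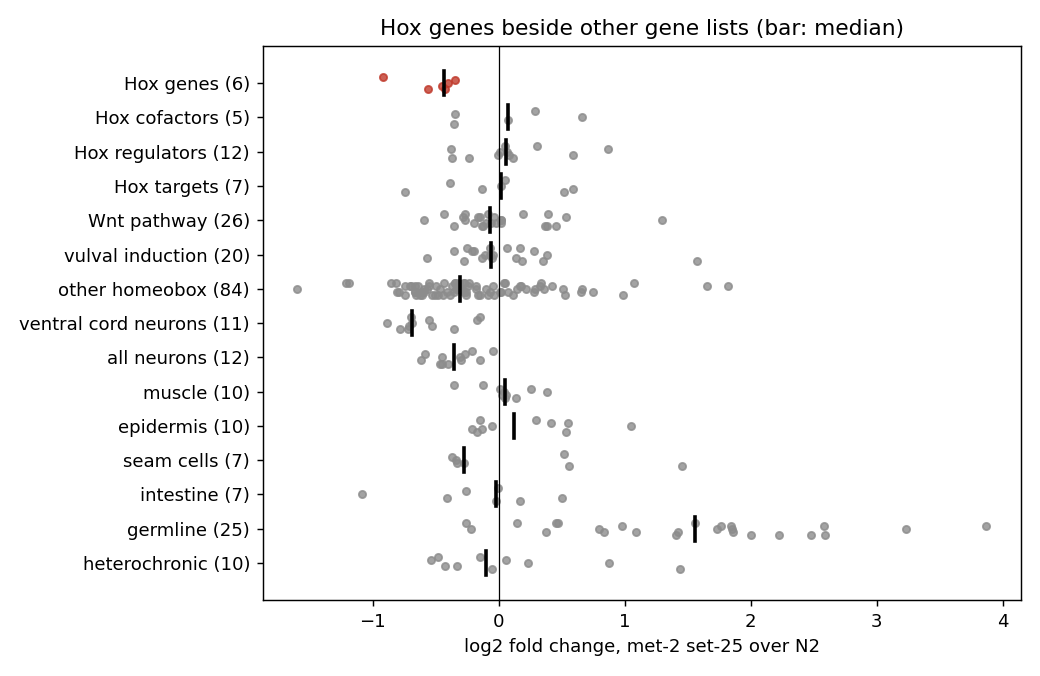
Log2 fold change of met-2 set-25 over N2 in edgeR (horizontal axis) for the tested members of each gene list (rows, number of genes in brackets), with the list's median as a black bar. The 6 Hox genes lie between -0.92 and -0.35, beside the ventral cord neuron list with a median of -0.69 and germline genes with a median of 1.56.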

How the data were processed

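Poly(A) RNA of L3 larvae was sequenced in 4 libraries, 2 of the met-2 set-25 mutant and 2 of N2. The authors' deposited tables hold raw counts for each gene and library, neither normalized nor pooled. The methods name the TruSeq RNA kit, which does not mark strand, STAR alignment to ce10 with annotation WS235 and counting with HTSeq, while featureCounts stands in the submitters' processing notes. Their versions are not given in the sources used here. Columns left out numbered 0. Genes were matched by WormBase identifier to the Ensembl annotation of WBcel235 (46449 matched, 299 not); positions and exon lengths are from that annotation, while the counts carry no coordinates.

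Genotype was the only term in edgeR 4.0.16 (R 4.3.3): filterByExpr, TMM factors, quasi-likelihood test, two-sided, Benjamini-Hochberg adjustment over 15978 genes, threshold 0.05. Alternatives were DESeq2 1.42.0, limma voom 3.58.1, edgeR's likelihood ratio test, other scalings and filters, and each library left out. Fits were tested on simulated data with the same assumed spread for all genes. That spread was not estimated from these libraries, so the simulation does not show how the tests perform on them. The members and the 17 other gene lists were chosen with earlier results of these data known. Text names the Hox genes, met-2 and set-25, overlapping and nearest genes, at most 4 members per list by call and then p, and the most similar homeobox gene. Beyond that rule, mes-2, mes-3, bar-1, egl-18 and DESeq2's calls near the Hox genes were named after their values were seen. A count of 0 allows up to 3 counts (counting error only). Over library totals, without TMM factors, that is 0.082 and 0.0617 CPM in the mutant libraries and 0.131 and 0.0527 CPM in the N2 libraries.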

Additional observations from a re-analysis of the deposited data

How the results depend on the processing

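The 6 Hox log2 fold changes kept their sign and stayed short of the threshold under DESeq2, limma voom, edgeR's likelihood ratio test, its newer quasi-likelihood form, 3 other scalings and 2 other filters, ranging from -0.98 for nob-1 to -0.32 for mab-5. The only reversal was mab-5 without rWQS045, at 0.0508 in edgeR and 0.046 in DESeq2. With each library left out, edgeR gave -0.57 to -0.27 for ceh-13, -0.61 to -0.22 for lin-39, -0.90 to 0.0508 for mab-5, -0.83 to -0.15 for egl-5, -0.98 to -0.24 for php-3 and -1.19 to -0.59 for nob-1, and adjusted p values of 0.169 to 1.0 over the 6. DESeq2 gave the same signs. The newer edgeR form and DESeq2 with libraries left out were chosen after seeing the data. The planned older quasi-likelihood form is the default of the installed version and so is the reported test itself.

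Calls over all genes numbered 0 in edgeR, 548 in DESeq2, 555 in the likelihood ratio test and 1223 with no filter on low counts; leaving out a library gave 0 to 228 in edgeR (228 without rWQS029, 133 without rWQS045) and 152 to 1424 in DESeq2 (152 without rWQS019, 1424 without rWQS029), and 0 of these calls was a Hox gene. In fits with a library left out, the spread comes from the other genotype's 2 libraries alone, so these counts and p values say little about stability. Calls among the 159 pathway and homeobox genes numbered 0 in edgeR, 1 in DESeq2, 1 in the likelihood ratio test and 4 with no filter, and 0 to 5 with a library left out. Among the marker and timing genes they numbered 0 in edgeR, 15 in DESeq2, 13 in the likelihood ratio test and 22 with no filter, and 0 to 27 with a library left out (27 without rWQS029 in DESeq2). With the longest transcript as length, lin-39 and php-3 exchanged ranks in N2. No paired analysis was possible because the columns carry no replicate numbers. With 2 libraries per genotype, the limma voom interval of each Hox gene includes 0, and that of the most variable, mab-5, runs from -1.48 to 0.71. Counting error and the spread between libraries were not separated as limits.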
